A study of Spodoptera frugiperda with 18 samples.

Results

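The subject is a set of predicted microRNAs (miRNAs) of the fall armyworm, Spodoptera frugiperda, a moth whose caterpillars eat maize and other crops, that were far more abundant in the egg than in any larva. They were chosen by their counts: a predicted row, one with no family name, entered the set with at least 10 egg counts and an egg level at least 4 times the highest level among larval instars 1 to 6. The rule took 44 of 177 predicted rows, in a table of 660 rows after identical rows were merged, and the 44 rows hold 40 distinct sequences. Levels are CPM, the count of a row for every 1000000 counts of its library, so they are relative abundances. Because the egg and instar counts chose the members, those values are a description with no test.

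The libraries hold small RNA of the egg, of each of the 6 instars, of the prepupa, of pupae sampled at 1, 4 and 7 days and of adults sampled at 1 and 4 days, with the sexes apart in pupae and adults. Each of these 18 stages, sexes and ages has 1 library, no strain, rearing treatment, egg age or pooling is given in the labels, and all groups are described only by stage, sex and age. The labels speak of 9 libraries where there are 18, and do not say whether libraries came from separate cultures. The p-values below measure only the spread between these samples, which may be technical. As different ages serve as replicates, that spread also takes in change with age. Library totals ran from 230451 counts in instar 3 to 4808814 in the prepupa, with 285485 in the egg, and 3 counts, the limit that a count of 0 allows, came to between 0.624 CPM (prepupa) and 13.02 CPM (instar 3). In bulk libraries such as these, fewer cells of a type and less RNA per cell cannot be told apart.

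An miRNA is a short RNA, cut from a hairpin precursor, that guides an Argonaute protein to messenger RNAs and lowers their translation or stability. Target choice rests mostly on the seed, the bases near the 5′ end, so miRNAs with 1 seed are grouped as a family. In animal eggs, small RNAs laid down by the mother meet those that the embryo makes itself, and in flies miRNAs help to clear maternal messages when the embryo's own genome switches on; the ovary also makes piRNAs, which are longer than most miRNAs, often start with U and silence transposons. A predicted arm is called 5p or 3p by the side of its hairpin.

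The members are named here P1 to P40 by falling egg level, and the sequences the results turn on are printed 5′ to 3′ as the table lists them, with T for U and with the seed, bases 2 to 8, in capitals. A first set shows the seed families: P1 and P8, with the seed CCAGTGT, P2, P13, P15 and P19, with the seed TAAGTAG, and P5, P7, P9, P14 and P16, with the seed CACTGGG.
P1: cCCAGTGTcgtgttaacgatct
P8: cCCAGTGTtgtgttaacgatct
P2: tTAAGTAGgttatgtatgactt
P13: tTAAGTAGgttttgctggactt
P15: tTAAGTAGgtttttggggtttg
P19: tTAAGTAGgtatcgaccaatt
P5: tCACTGGGtgtagtgataatcg
P7: tCACTGGGtgttgtgataatcg
P9: tCACTGGGtatgtaataacata
P14: tCACTGGGtgtgtgataataga
P16: tCACTGGGtggtttgataaccg

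A second set holds sequences of 24 to 25 bases that share their seed with no other row and that are named for their level, their test or their place at the limit of the rule.
P3: tCACAGATtgtacaattattaattt
P4: tAGCAAAAttcggactcacgtgttt
P6: tCCGAATGtaggccttgtagatgcc
P10: aGGACGCGattcggtgtaaacgttg
P24: tCCCTTGGcattcgtctggcagaat
P29: aAACCCGAaggtgtgtagcctccct
P37: tGTAATGCatgagacatgtcgcact

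The last set holds shorter sequences outside the seed families, shown for their level, their test or a near copy.
P11: aCCAATGAgaacgcagaatgta
P12: tTAAGTACgttacgatcggct
P18: aGCTCGACaaactctacttagct
P20: tGAGAGGTgcaggtaattataat
P21: tTACTGAGagtttcgaaaattg
P22: tATTTTTGtattacatggccca
P23: gATGAGTGgaggtttagtgcatg
P26: gTTGTCACtcactcagtagaca
P27: gGGGCCGAacaattccagacga
P30: gGCTGTCActcactcagtaga

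P1 and P8 are both 5p arms and differ at 1 of 22 bases. The P2 family are all 5p arms, and every pair of the 4 shares at least the first 10 bases. The P5 family are all 3p arms and share at least the first 9 bases, with P5 and P7 differing at 1 of 22 bases. P2, P5 and P7 are listed more than once with unequal counts (2, 3 and 2 rows), and one row of each, that with the most egg counts, is used below where levels are summed. Counts of P1 against P8, P5 against P7 and P26 against P30, which are near copies with 1 difference, are uncertain where the authors' counting could have split reads between them. The same limit holds for P9, P20 and P27, which overlap the named rows given below.

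Few members match a named row. The first 21 bases of P9 are those of the row named miR-2733-z, a family name known from the silkworm, and the first 21 of P20 are those of sfr-miR-10466-3p. P27 shares 19 bases with sfr-miR-10483-2-3p without a difference, and lies within 1 difference of sfr-miR-10483-3p and of miR-10483-y. The seed of P5, P7, P9, P14 and P16 is also that of miR-2733-z. The seed of P12 is that of the row named miR-252-x, and the seed of P1 and P8 that of the row named miR-199-x. The 40 sequences carry 32 different seeds, and none of these seeds occurs in another predicted row.

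The members were long and began with T more often than the other rows of the table. Of the 40 sequences 29 (72.5%) start with T, against 52 of 131 (39.7%) among the other predicted sequences and 212 of 478 (44.4%) among the named ones. At 24 bases or more lie 18 of 40 (45.0%) members, 26 of 131 (19.8%) other predicted and 47 of 478 (9.83%) named sequences, and 15 of these 18 members start with T against 9 of the 26. Median GC content was 44.0% in members, 45.5% in other predicted and 47.6% in named sequences. These shares are descriptions; the rule used no sequence feature.

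**Figure D1:**
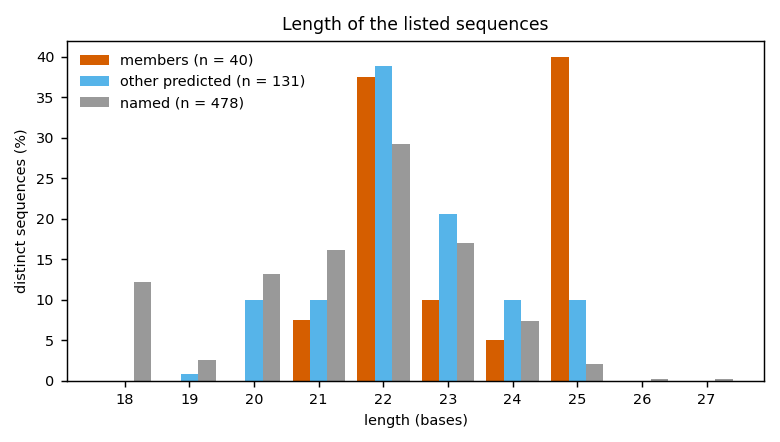
Share of distinct sequences (y axis, percent) at each length in bases (x axis) for the 40 members, the 131 other predicted and the 478 named sequences. Members have 1 peak at 22 bases (15 sequences) and 1 at 25 bases (16 sequences), while the other predicted sequences have 51 at 22 bases and 13 at 25.

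In the egg the members' rows took 62182 of 285485 counts, or 21.8% (exact 95% binomial interval 21.6 to 21.9), and 18.9% with 1 row a sequence. The other predicted rows took 7.79% of the egg counts. Instar 1 had 0.401% of its counts in members' rows, and the share was lower in each later instar, down to 0.124% in instar 6. It was 0.132% in the prepupa and between 0.0676% and 0.122% in the 6 pupal libraries. Adults split by sex: females had 0.593% on day 1 and 2.34% on day 4, males 0.0931% and 0.0970%. The female day 4 adult was the later library nearest to the egg, although its share was still far below it. Intervals and limits hold counting error alone, since the reads carry no molecular identifiers and may be copies of 1 molecule.

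By the rule all 40 sequences had at least 10 counts in the egg. At least 10 counts were found for 26 in the female adult of day 4, 19 in that of day 1, 13 in instar 1 and 9 in each male adult library. Instar 1 was the highest instar for 19 of the 40 sequences, and 8 had no count in any instar. Among the 11 libraries from prepupa to adult, the female adult of day 4 held the highest level of 33 of the 40.

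**Figure D2:**
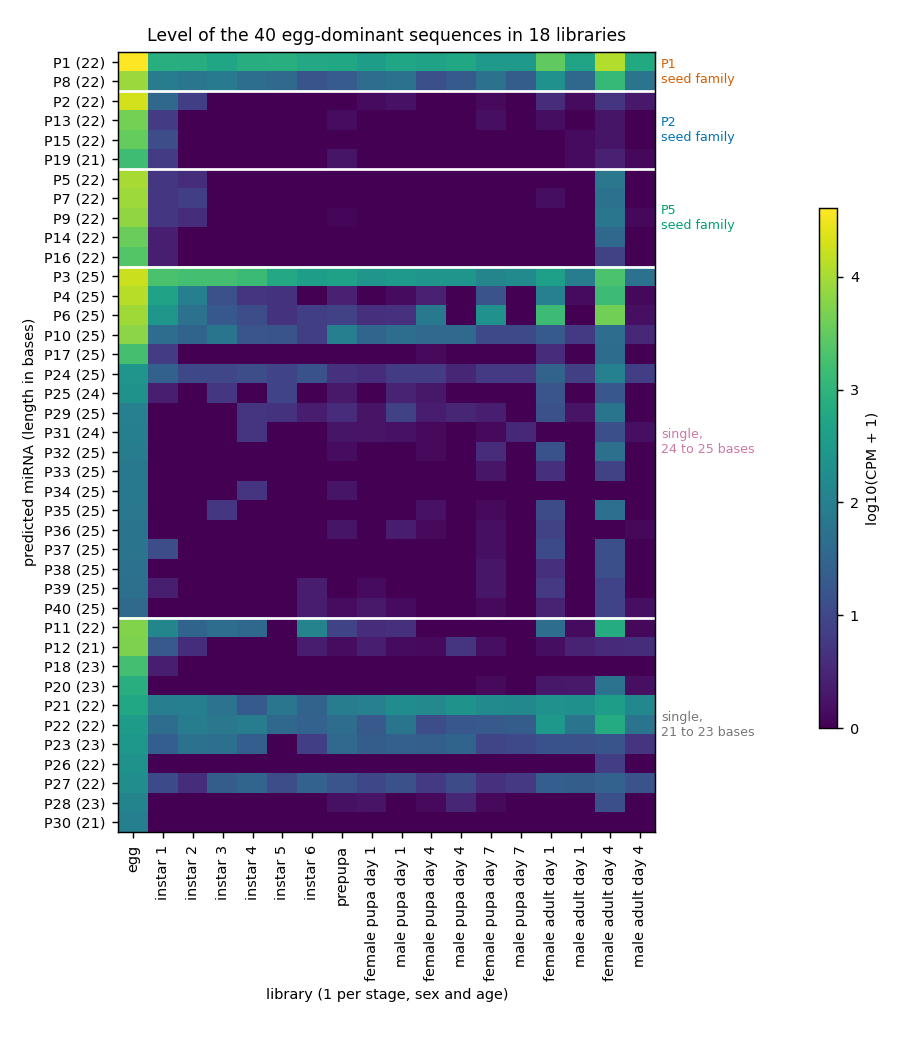
Level of each of the 40 sequences (rows, with length in bases, grouped by seed family or length) in the 18 libraries (columns), as log10 of CPM with 1 CPM added. The egg column is bright throughout by the rule, and among the later libraries the female adult columns, day 4 above day 1, are brightest, with the P2 family dark there at no more than 4.17 CPM.

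The P1 family kept a level in every library. P1, the member with the highest level in each of the 18 libraries but instars 1 to 4, where P3 was higher, stood at 40783 CPM in the egg (exact 95% Poisson interval 40046 to 41531), 6th of all rows of the table there. In instars 1 to 6 it stood at 765, 755, 516, 742, 769 and 604 CPM and in the prepupa at 552 CPM. Over days 1, 4 and 7 pupal P1 was 384, 460 and 307 CPM for females against 512, 557 and 310 CPM for males, so the sexes lay close together. Adult P1 was 3024 CPM on day 1 and 11763 CPM on day 4 in females, against 490 and 624 CPM in males. Only the adult females left the range of the larvae and pupae upwards. P8, its near copy, lay at a lower level, with 8354 CPM in the egg, 217 and 1217 CPM in adult females and 34.6 and 59.2 CPM in adult males. Through the larva it fell more steeply than P1, from 88.1 CPM in instar 1 to 15.1 CPM in instar 6.

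The P2 family was almost an egg signal alone. Summed over the 4 sequences it stood at 28632 CPM in the egg, 56.9 CPM in instar 1 and 6.04 CPM in instar 2, and no count was found in instars 3 to 6. P2 itself stood at 19339 CPM in the egg, 34.1 CPM in instar 1 and 6.04 CPM in instar 2. Its 3 relatives had between 1503 and 4414 CPM in the egg and between 5.69 and 11.4 CPM in instar 1. In later life the family sum was 1.25 CPM in the prepupa, at most 0.864 CPM in pupae, 3.35 and 7.51 CPM in adult females of days 1 and 4, with 1.10 and 1.29 CPM for adult males. The female day 4 sum rests on 9 counts. P12, with the seed TAAGTAC, was similar in outline, at 5118 CPM in the egg, 18.5 CPM in instar 1 and no more than 4.23 CPM in any library after instar 1.

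The P5 family fell as steeply after the egg but was seen again in 1 later library. Its 5 sequences summed to 31911 CPM in the egg, 15.6 CPM in instar 1, 12.1 CPM in instar 2 and 0 in instars 3 to 6. In the prepupa 1 count was found, none in the 6 pupal libraries, 1 in the female adult of day 1, none in the male adult of day 1 and 1 in the male adult of day 4. The female adult of day 4 had 268 counts, or 224 CPM, spread over all 5 sequences. P5 stood at 65.1 CPM there, P7 at 54.3, P9 at 64.3, P14 at 33.4 and P16 at 6.68 CPM. The row miR-2733-z, the near copy of P9, had the same outline, with 2004 CPM in the egg, 8.53 CPM in instar 1, 30.9 CPM in the female adult of day 4 and 0 in the 15 other libraries.

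The female adult of day 4 therefore held the families at very different fractions of their egg level. For the sequences of the P1 family its level was 14.6% and 28.8% of that in the egg. For the P5 family the fractions ran from 0.279% to 0.927% (median 0.647%), and for the P2 family from 0.0189% to 0.111% (median 0.0232%), with 1 to 5 counts behind each of the latter. The 18 single sequences of 24 to 25 bases had a median of 14.0% and reached 66.7%, and the 11 single sequences of 21 to 23 bases a median of 7.40%. P22, at 194%, was the only member higher in the female adult of day 4 than in the egg. With 1 library for each of these stages the differences have no replicate check.

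**Figure D3:**
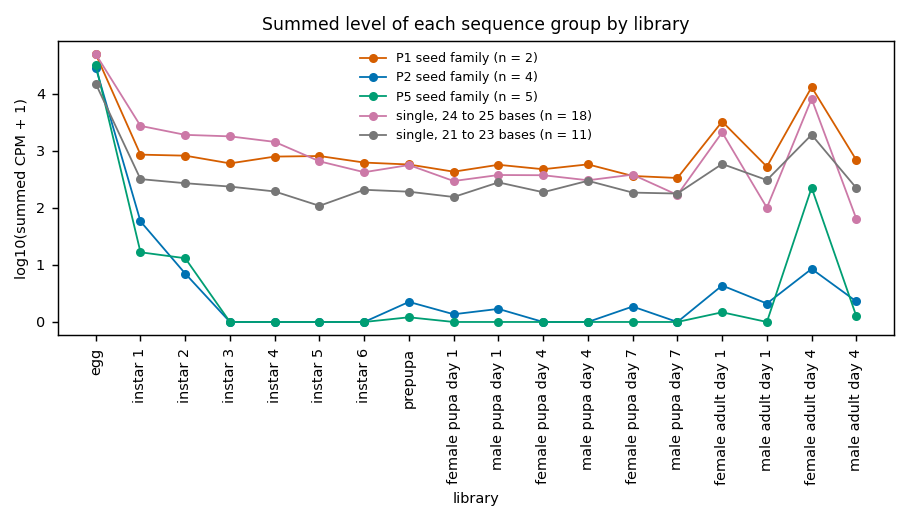
Summed level of each sequence group (y axis, log10 of summed CPM with 1 CPM added, 1 row a sequence) in each library (x axis); lines only join libraries of a group. The P2 and P5 families drop to 0 by instar 3, the P1 family stays between 332 and 853 CPM from instar 1 to the last pupa, and in the adult females of day 4 the P5 family reaches 224 CPM but the P2 family only 7.51 CPM.

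The sequences of 24 to 25 bases summed to 49211 CPM in the egg and fell in steps through the larva, from 2722 CPM in instar 1 to 419 CPM in instar 6. In adult females they summed to 2093 CPM on day 1 and 8105 CPM on day 4, and in adult males to 99.3 and 62.8 CPM. On each of these days 16 of the 18 were higher in the female than in the male library. Most of the larval sum was P3, with 17549 CPM in the egg and 1907, 1706, 1675, 1373, 610 and 389 CPM in instars 1 to 6. P3 kept 443 CPM in the prepupa, 253, 252 and 124.1 CPM in female pupae and 308.7, 262 and 150.4 CPM in male pupae of days 1, 4 and 7. Adult P3 levels were 398 and 2010 CPM for females against 86.5 and 52.3 CPM for males, above the pupal range only in females and below it only in males.

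P4 and P6 were the members with the widest gap between the sexes. P4 stood at 13013 CPM in the egg and 446, 96.6, 13.02, 3.84, 3.70 and 0 CPM in instars 1 to 6. In female pupae of days 1, 4 and 7 it was 0, 1.62 and 14.1 CPM, and in adult females 100 and 1425 CPM. All 5 male pupal and adult libraries had at most 1 count. The limit that a count of 0 allows was 6.35 CPM in the male pupa of day 4 and 7.16 CPM in that of day 7, so the sexes lay apart beyond it from pupal day 7 on. Against the single count in each male adult, the female to male ratio of CPM was 272 on day 1 (95% counting interval 48.3 to 10793) and 5535 on day 4 (992 to 218737).

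P6 stood at 9093 CPM in the egg and 280, 54.3, 17.4, 11.5, 3.70 and 6.28 CPM in instars 1 to 6. In females it was 3.29, 70.8 and 218 CPM in pupae of days 1, 4 and 7 and 1462 and 4247 CPM in adults. Males had 3.47 CPM on pupal day 1, no count in the pupae of days 4 and 7 or the day 1 adult, and 2 counts, 0.515 CPM, in the day 4 adult. The adult female level was thus at least 1325-fold higher on day 1, against the limit of 3 counts per library, and the ratio on day 4 was 8247 (95% counting interval 2282 to 68116). In the pupae of days 4 and 7 the female levels of P6 already lay above the male limits of 6.35 and 7.16 CPM.

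P10, P11 and P22 departed from this outline in part or in whole. Some members had a like rise in females at lower levels. P32, for one, stood at 2.88 CPM in the female pupa of day 7 and 13.4 and 48.4 CPM in adult females. It had no count in any male library. P32 lies outside the rule for named miRNAs and was added after its values were seen. P10 stood at 6547 CPM in the egg and 6.28 to 60.8 CPM in instars, and its highest later level, 97.9 CPM, was in the prepupa. It was 19.2 and 43.4 CPM in adult females and 5.15 and 2.32 CPM in adult males. P11 stood at 5503 CPM in the egg, 129 CPM in instar 1, 0 in instar 5 and 114 CPM in instar 6. It had no count in either sex in pupae of days 4 and 7, and stood at 44.1 and 711 CPM in adult females against 1 count in each adult male library (ratios of 119.7, interval 20.96 to 4780, and 2763, interval 494 to 109240). P22 stood at 354 CPM in the egg, 27.6 to 84.6 CPM in instars, 290 and 686 CPM for adult females and 59.2 and 57.9 CPM for adult males.

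A few members were seen in the egg almost alone. P18 had 486 counts, 1702 CPM, in the egg, 1 count in instar 1 and none in the 16 other libraries. P30 had 28 egg counts and none elsewhere, and P26, its near copy, 221 CPM in the egg and 5.84 CPM in the female adult of day 4 with no count in the 16 other libraries. P20 stood at 767 CPM in the egg and 56.8 CPM in the female adult of day 4, with at most 1.10 CPM in any other library. P18 and P30 were singled out after their values were seen.

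Members at the limit of the rule show how continuous the choice was. Just inside it were P22, with an egg level 4.18 times its highest instar level, and P37, at 59.5 CPM in the egg and 5.24 times its highest instar level. Just outside it was a predicted sequence with a large egg level, cCCTTTTCgtgttttattaaca, with 36275 CPM in the egg against 9163 CPM in its highest instar, a ratio of 3.96. The other was cTAGCACTttggctgtgacctgtg, with 221 CPM against 56.4 CPM, a ratio of 3.91.

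Females and males were compared over the 10 pupal and adult libraries, which the rule did not use, with edgeR's quasi-likelihood test, ages serving as replicates and as blocks. A row was tested, as 344 were, where its mean over these libraries reached 10 counts, with Benjamini-Hochberg adjustment over them and a threshold of 0.05. Of the 40 members 13 passed this minimum, 6 of them 24 to 25 bases long, and 27 did not, the whole P2 and P5 families among them. A member could pass through the adult females alone. P4, P11 and P29 did so, since their mean over the other tested libraries was under 10 counts. P6 passed through the females of both stages, as no male library held more than 10 counts of it. The counts and medians below therefore cover these 13 and are no support for the set as a whole.

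In adults 8 of the 13 tested members were higher in females and none was lower, against 4.94% of all tested rows called higher and 1.45% called lower. The 8 were P1, P3, P4, P6, P8, P10, P11 and P22. P1 was higher by 3.23 on the log2 scale (SE 0.41, adjusted p = 0.00411, edgeR), P8 by 3.31 (SE 0.58, adjusted p = 0.0157, edgeR) and P3 by 3.53 (SE 0.70, adjusted p = 0.0233, edgeR). P22 was higher by 2.72 (SE 0.50, adjusted p = 0.0176, edgeR) and P10 by 2.82 (SE 0.65, adjusted p = 0.0468, edgeR). For P4, P6 and P11, with 0 to 2 counts in each adult male library, fitted differences of 10.6, 12.8 and 9.49 (adjusted p = 0.00684, 0.0233 and 0.0151, edgeR) depend on the prior count of the fit and are no bound. Each of the 8 was higher in the female library on both days. P3 and P10 lost the call with DESeq2's size factors (adjusted p = 0.0582 and 0.0574 by edgeR) and with library totals (0.0700 and 0.0612), which left 6 members called. Over all 18 alternatives the adjusted p of P3 ran from 5.1e-07 to 0.279 and it was called in 8, that of P10 from 0.00128 to 0.345 with 7 called, and that of P6 from 7.5e-06 to 0.345 with 8 called. P24 and P29, at 2.91 and 6.09, had an adjusted p of 0.0615 each by edgeR, and P21, P23 and P27, at 0.54, 0.72 and 0.31, had adjusted p-values of 0.717, 0.717 and 0.924. The value of P29, with 2 and 0 adult male counts, depends on the prior count too. P21, P23 and P29 lie outside the rule for named miRNAs and were added after their values were seen.

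The median log2 difference over the 13 members was 3.23, which is that of P1, against -0.03 over all 344 tested rows. It was -0.20 over the 52 other predicted rows tested, of which 1 was higher and 1 lower. The 13 include P4, P11 and P29, which passed the minimum only through the adult females, and P6, which passed through females alone. Their median is therefore a description. Without a minimum on counts and without a model, 35 of the 40 sequences were higher in the female than in the male adult of day 4, 34 of them at least 2-fold, against 73 and 43 of the 131 other predicted sequences and 272 and 144 of the 478 named ones. The count of 8 rests on few libraries: it was 3 without the female or the male pupa of day 4, 5 without the female pupa of day 7, 2 without the female adult of day 4 and 4 without the male adult of day 4. It was 0 with no age block, where 2 of all rows were called, and 3 without the day 4 and day 7 male pupae, which are the shallowest of the 10 libraries, an alternative chosen after seeing the data.

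**Figure D4:**
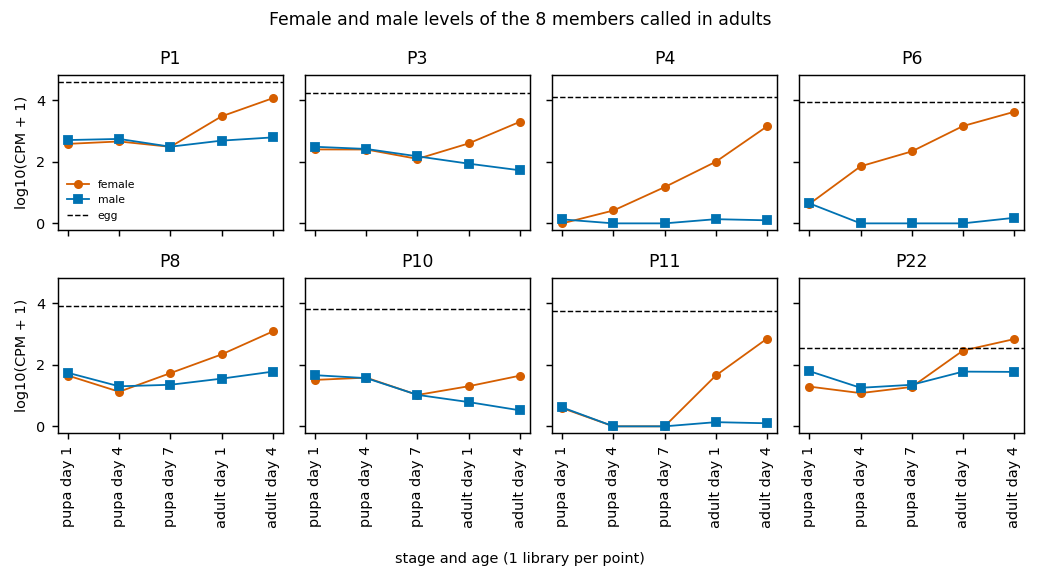
Level (y axis, log10 of CPM with 1 CPM added) of the 8 members higher in adult females, in female (circles) and male (squares) libraries by stage and age (x axis, 1 library per point), with the egg level as a dashed line. Females lie above males at both adult ages for all 8, and already from pupal day 4 on for P6 and from pupal day 7 on for P4. In pupae the male of day 1 was higher for P22 (61.5 against 18.6 CPM). The female of day 7 was higher for P8 (52.7 against 21.5 CPM). P22 in the day 4 female lies above its egg level.

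Markers of tissues were looked at beside this difference. Adult ovary markers, here the rows of miR-989, which is made in the follicle cells of fly ovaries, and of miR-184, which acts in the female germline of flies, summed to 33376 and 50513 CPM in the adult females and 23785 and 33150 CPM in the adult males over their 4 rows. miR-989-z alone stood at 4724 and 20612 CPM in adult females against 1.47 and 1.03 CPM in adult males, and at 476 CPM in the egg. miR-184-y went otherwise, with 28345 and 28458 CPM in adult females against 23694 and 32993 CPM in adult males of days 1 and 4. Both it and miR-184-z were higher in the female on day 1 and lower in the female on day 4. Muscle rows (4, of miR-1 and miR-133) summed to 19688 to 47806 CPM in adult females and 21867 to 53578 CPM in adult males, and nervous system rows (6, of miR-124, miR-7 and miR-137) to 350 to 428 CPM and 296 to 300.2 CPM, with 1 row at 0 in both adult females. Their part in the members' difference was not tested. In a comparison list of miRNAs of embryo, ovary and germline, 4 of 22 tested rows were higher in adult females and none was lower. Of all tested rows 4.94% were called higher and 1.45% lower. The 4 were sfr-miR-92a-3p by 2.73, miR-92-z by 3.72, miR-989-z by 12.8 and miR-989-y by 11.4 on the log2 scale (edgeR). Both miR-989 rows passed the minimum on counts only through females. The adult males had 1 and 0 counts of miR-989-y, so its value depends on the prior count and is no bound.

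In pupae no member was called in either direction by edgeR, against 1.16% of all tested rows higher and 2.91% lower in females. At an unadjusted p under 0.05, 1 member was higher and none lower by edgeR, DESeq2's Wald test called 1 and limma none. The member was P6, higher by 4.12 (SE 1.54, adjusted p = 0.192, edgeR), which had passed the minimum on counts through females alone. The median over the 13 members was 0.27, against 0.32 over all tested rows. Leaving out 1 library gave 0 or 1 members, with 1 without the female or the male pupa of day 1.

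Over all 5 ages together no member was called by edgeR, against 0.291% of all tested rows higher in females and 0.291% lower. At an unadjusted p under 0.05, 3 members were higher and none lower, DESeq2's Wald test called 2 and limma none. The 3 by edgeR were P4, P6 and P8, of which P4 and P6 had passed the minimum through females alone. The fitted difference was above 0 for all 13 members (median 1.41, against 0.21 over all tested rows). The count was 3 without the female pupa of day 1, 2 without the male pupa of day 1 and 1 without the age block.

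Whether the sex effect differed between the stages was tested itself. P1 and P22 were called higher in adults, of 13 members, against 2.62% of all tested rows higher and 0.581% lower. P1 had a sex effect larger in adults by 2.96 on the log2 scale (SE 0.50, adjusted p = 0.0469, edgeR) and P22 by 3.17 (SE 0.65, adjusted p = 0.0469, edgeR). The value of P22 rests in part on pupae, where its fitted difference was -0.45, with males higher. The median over the members was 2.96, against -0.35 over all tested rows, and 9 members had an unadjusted p under 0.05 in this direction. Neither was called without the female or the male pupa of day 1 or of day 4, the female pupa of day 7 or the female adult of day 4. The count was 1 without the male adult of day 4, 0 without the day 4 and day 7 male pupae together and 7 without the female or the male adult of day 1.

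Adults were compared with pupae with terms for stage and sex. Of the 13 members 5 were higher in adults and none was lower, where 11.9% of all tested rows were called higher and 11.9% lower. The 13 include P4, P11 and P29, which passed the minimum on counts only through the adult females, so this count is a description. The 5 were P1 by 2.28 (SE 0.70, adjusted p = 0.0444, edgeR), P4 by 5.62 (SE 1.74, adjusted p = 0.0451), P22 by 2.91 (SE 0.78, adjusted p = 0.0323), P24 by 2.19 (SE 0.63, adjusted p = 0.0393) and P27 by 1.37 (SE 0.39, adjusted p = 0.0378). P27 was the only one of them with adult males near adult females, at 22.1 and 13.9 CPM for males and 22.98 and 27.6 CPM for females, against 3.45 to 13.2 CPM in the 6 pupae. P24 stood at 28.3 and 107 CPM in adult females, 6.62 and 6.18 CPM in adult males and 2.12 to 5.56 CPM in pupae. The fit gave both sexes 1 stage effect, although males alone showed little or no rise for P1, P4, P22 and P24. P1 stood at 490 and 624 CPM in adult males against 310 to 557 CPM in male pupae. P22 stood at 59.2 and 57.9 CPM in adult males against 16.9 to 61.5 CPM in male pupae. P4 had at most 1 count in any male library. The count was 0 without the female pupa of day 1, 4 or 7, the male pupa of day 4 or the female adult of day 1, 1 without the female adult of day 4, 2 without the male pupa of day 7 or either male adult, 7 without the male pupa of day 1 and 1 without the day 4 and day 7 male pupae.

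In adult females 36 of the 40 sequences were higher on day 4 than on day 1, against 74 of the 131 other predicted sequences (56.5%) and 292 of the 478 named ones (61.1%). Any difference in CPM was taken, without a minimum on counts. The whole P2 family, for one, enters on 9 counts on day 4 and 7 on day 1. P1 went from 3024 to 11763 CPM, P6 from 1462 to 4247 CPM and P11 from 44.1 to 711 CPM. In the males of the same days P1 stood at 490 and 624 CPM, P3 at 86.5 and 52.3 CPM and P22 at 59.2 and 57.9 CPM. With 1 female library a day, this step has no replicate check.

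**Figure D5:**
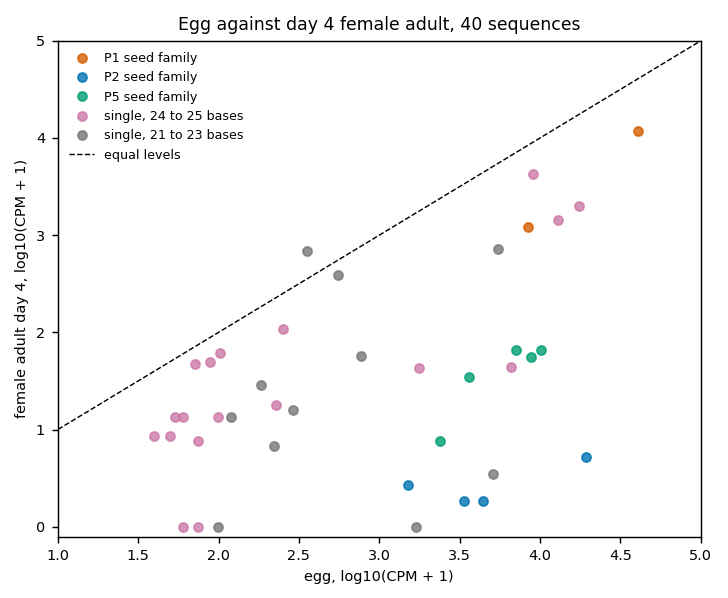
Level in the female adult of day 4 (y axis) against the level in the egg (x axis), each as log10 of CPM with 1 CPM added, for the 40 sequences by group, with a dashed line of equal levels. P22 alone lies above the line, and the P2 family lies at the bottom right, with 1503 to 19339 CPM in the egg and 0.835 to 4.17 CPM in the female.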

How the data were processed

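The authors deposited 1 table of whole-number counts per miRNA for 18 small RNA libraries, with a name and a sequence per row. Per the labels' protocols, RNA was extracted with Trizol, a TruSeq kit for small RNA was used, and sequencing was on a HiSeq instrument. Aligner, miRNA caller, genome build and the treatment of reads that match several rows: not given in the sources used here. The 741 rows include sequences listed under several names; those alike in both sequence and counts were merged to 660.

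CPM was the count over the library total of merged rows. A near copy has 2 or fewer differences over 18 or more aligned bases. Tests were edgeR's quasi-likelihood test with TMM factors (0.762 to 1.29) and robust dispersions, over 6 pupal and 4 adult libraries, on rows with a mean of at least 10 counts. It was also run on simulated counts with a common dispersion for all rows and no effect of day. These differ from the libraries here, so that run is no check of their spread. The SE printed is the log2 difference over the square root of F, and is approximate. Counting intervals are exact 95% binomial or Poisson intervals. Alternatives were DESeq2's size factors and Wald test, limma on log2 CPM, library totals, no filter, no age block, each library left out, and other limits of the rule. Versions were R 4.3.3, edgeR 4.0.16, limma 3.58.1, DESeq2 1.42.0, matplotlib 3.10.9, scipy 1.17.1, pandas 2.3.3, numpy 2.4.6 and Python 3.11.15.

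Named members are the 10 with the highest egg CPM, those called in a test, the highest of each later library, those sharing a seed or a near copy, and the 2 on each side of the 4-fold limit. Members and lists were chosen with earlier results of these data known.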

Additional observations from a re-analysis of the deposited data

Results flagged for a closer look

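Instar 1 was marked as an outlier among the 6 instars for 4 members, out of 15 sets of instar values looked at. These sets were the levels of chosen members and the share of counts in members' rows. Members outside them were not checked, though some had such a gap, as P12 at 18.5 CPM in instar 1 and 3.02 CPM in instar 2. The rule used the instar levels, so this is a description and no test. The instar 1 levels were 34.1 CPM for P2, 446 CPM for P4, 280.0 CPM for P6 and 25.6 CPM for P24. For P24 the gap was small in counts, 18 in instar 1 against 11 in instar 6. In pupae and adults, the sex effect differed between the stages by its own test for P1, by 2.96 on the log2 scale, and for P22, by 3.17.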

How the results depend on the processing

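Each stage, sex and age has 1 library, and the male pupae of days 4 and 7 are the shallowest of those tested. Counts of calls moved more than directions, and whether depth had a part in this was not tested. Of 268 values of named members under alternatives, none reversed, 152 remained past the threshold and 116 lost it. For females against males, 0 members were called, 2 with no filter, 2 by the DESeq2 Wald test, 1 with no age block and 0 to 3 with 1 library left out. In adults the 8 became 23 with no filter, where 41 member rows were tested, 0 with no age block, 6 with DESeq2's size factors or library totals, 3 without the male pupae of days 4 and 7 and 2 to 10 with 1 library left out. In pupae the 0 became 1 by the DESeq2 Wald test and 0 to 1 with 1 library left out. For the difference of the sex effect the 2 became 7 with no filter, 8 by the DESeq2 Wald test, 0 without those male pupae and 0 to 7 with 1 library left out. For adults against pupae the 5 became 3 with no filter, 1 without those male pupae and 0 to 7 with 1 library left out. Leaving out 1 library of an age also takes its partner out of the sex comparison when age is a block; other causes were not tested. The rule gave 44 rows, 72 without merging, 50 with a 2-fold and 39 with an 8-fold limit, 51 from 5 and 32 from 30 egg counts, 47 with TMM factors and 44 to 46 with 1 instar left out. The labels give no replicate numbers, and the sexes were paired by age in the main design.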

Other observations

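The 7 letters CTACTTA, which are the reverse complement of the P2 family's seed, occur in 1 of the 649 distinct sequences of the table, P18, from its base 14. The reverse complement of the P5 family's seed, CCCAGTG, occurs in 4 of the 649, of which P1 and P8 begin with it; the others are miR-199-x and 1 predicted sequence that is not a member. These are matches of letters and say nothing of pairing.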
